A study of Rattus norvegicus with 7 samples.

Results

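Pcdh15, Luzp2, Matn4, Neu4, Dscam, Cacng4 and Rlbp1 are 7 genes whose transcripts mark oligodendrocyte progenitor cells in rodent brain. They were taken by gene symbol from a table of 32852 rat genes, in which each of the 7 symbols had 1 row, and were followed through 7 RNA-seq libraries. Reads were recovered for 6 of the 7, and Neu4 was listed at 0 in every library. All 7 libraries came from wild-type oligodendrocyte progenitor cells isolated from the brains of rats at postnatal day 7. The rats' strain and sex are not given in the sources used here. About 40000 cells per well of plates with 12 wells were transfected with Lipofectamine RNAiMAX and moved to differentiating medium at the same time, and they stayed in it for 4 to 5 days. The siRNLTR12-int group (3 libraries) was given an siRNA directed at RNLTR12-int, a repeat in rat DNA that derives from an endogenous retrovirus. The control siRNA group (4 libraries) received a control siRNA of the same supplier and shared every other step. The level of RNLTR12-int was not analysed here, so the siRNA's effect on its target was not checked. The labels call the libraries biological replicates and name no animal, culture or day. The p-values thus set group differences against the scatter of these libraries only, which may in part be technical.

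Oligodendrocyte progenitor cells divide, migrate and contact neurons before they leave the cycle and make myelin, and they carry adhesion molecules, matrix proteins and transmitter receptors that are lost or replaced as they mature. Pcdh15, a cadherin best known from the tip links of inner ear hair cells, and Dscam, an immunoglobulin superfamily adhesion molecule that binds netrin, act at cell contacts. Matn4 encodes matrilin 4, an adaptor protein of the extracellular matrix, and Luzp2 a leucine zipper protein whose function is little known. Cacng4 encodes an auxiliary subunit of AMPA-type glutamate receptors. Neu4 is a sialidase, and Rlbp1 encodes the cellular retinaldehyde-binding protein, best known from the retina. How these genes stand when an siRNA that is directed at RNLTR12-int is present during differentiation is the question that the 2 groups address.

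The libraries held 22523873 to 61803693 recovered reads. Oligodendrocyte lineage transcripts were present in all of them: Sox10, the transcription factor of the lineage, had 8037 to 38713 normalised counts (reads divided by the authors' size factor of the library), and Mbp, which encodes myelin basic protein, had at least 15076. Mbp had 15076 to 32168 after siRNLTR12-int and 78977 to 401821 in controls, groups that did not overlap. The authors' deposited table marks Mbp as down, with a log2 fold change of -2.93 (adjusted p = 0.00236), and limma gave -2.63 (adjusted p = 0.647). Transcripts of other glia were present too, and unevenly. The 12 astrocyte markers examined, all with reads, summed to 539190 to 666119 normalised counts in siRNLTR12-int replicate 1 and control replicates 1 and 2, and to 140168 to 160200 in siRNLTR12-int replicates 2 and 3 and control replicates 3 and 4. By siRNA group the sums ran from 140168 to 666119 after siRNLTR12-int and from 147233 to 602087 in controls. The 2 sets of libraries are called astrocyte-rich and astrocyte-poor below. The 11 microglia markers with reads followed the same split, at 5693 to 18512 against 1817 to 2643, and the 12 neuron markers summed to 31071 to 36744 against 40643 to 44032. In bulk RNA, fewer cells of a type and less RNA per cell cannot be told apart.

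No member passed the test between the siRNA groups. In limma on log2(normalised count + 1), with a Benjamini-Hochberg adjusted p under 0.05 over the 18225 genes whose mean reached 10 normalised counts, 0 of the 6 measured members passed. That test called 0% of all genes tested. At an unadjusted p under 0.05 limma had 3.33% of genes higher and 2.98% lower, 6.3% in all, and 0 members among them. EdgeR on the recovered reads called 0 of 18608 genes as well; its unadjusted p fell under 0.05 for 585 genes upward and 593 downward. Leaving out 1 library at a time, limma called 1 gene without siRNLTR12-int replicate 2, 2 without control replicate 4 and 0 otherwise, with 0 members among them. Of the 18747 genes with an adjusted p in the authors' deposited table, 141 (0.752%) had one under 0.05, with 0 members among them. The authors' deposited table itself marks 101 of these (0.539%), 38 as up and 63 as down, all with a log2 fold change of at least 1.03 in size, and marks 0 members. The median log2 difference of the 6 members was 0.19, with 4 positive and 2 negative, against a median of 0.01 over all genes tested, of which 51% were positive. In none of the 6 did the 3 siRNLTR12-int libraries lie wholly above or below the 4 controls, a separation seen in 7.68% of the genes tested (4.09% higher and 3.59% lower after siRNLTR12-int).

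**Figure D1:**
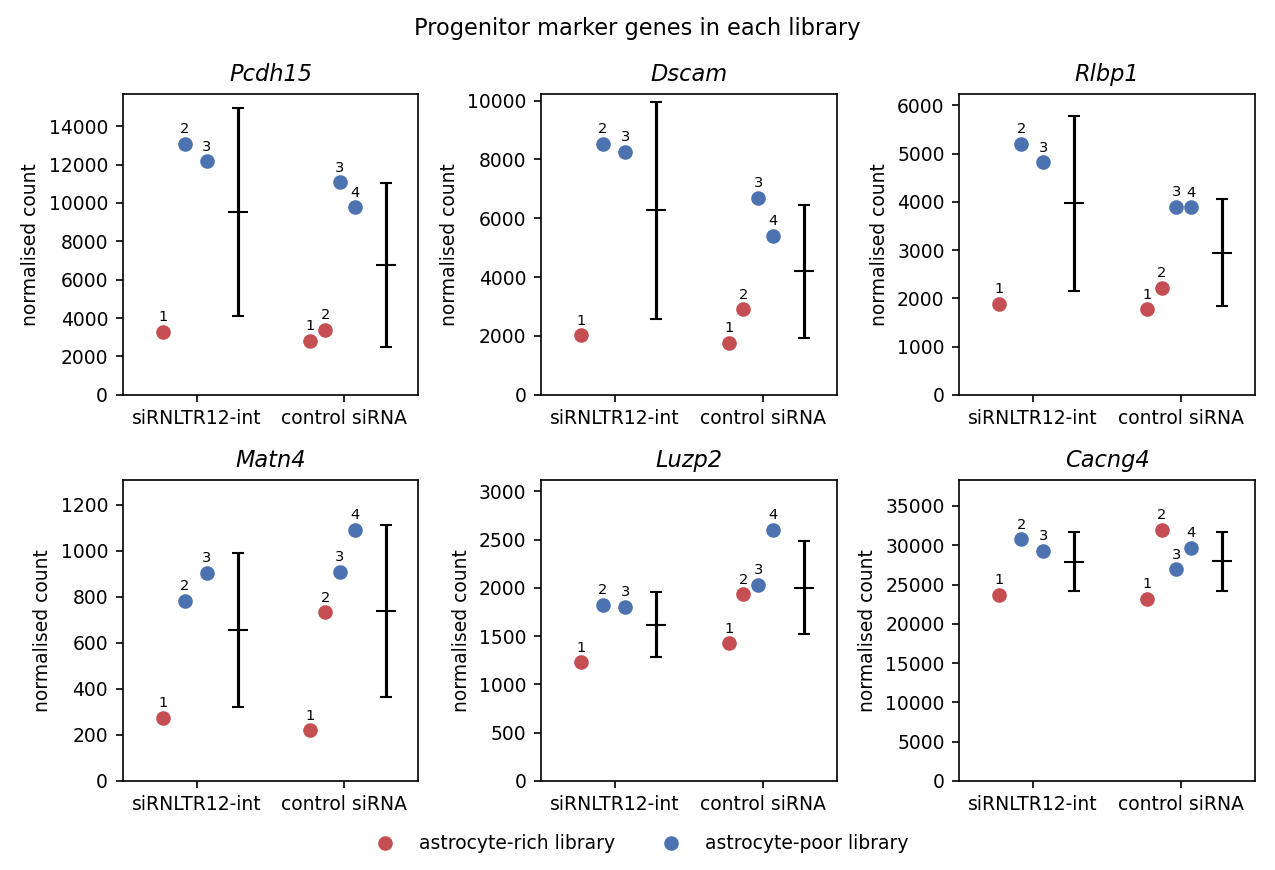
Normalised count (vertical axes, from 0) of the 6 measured members in each library, with replicate numbers beside the points, siRNLTR12-int left and control siRNA right, and the mean ± SD of each group as a bar. Red points are astrocyte-rich and blue points astrocyte-poor libraries. In Pcdh15, Dscam, Rlbp1 and Matn4 every blue point lies above every red one, while Luzp2 and Cacng4 overlap.

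Pcdh15 (ENSRNOG00000000606) had 3287, 13091 and 12182 normalised counts in siRNLTR12-int replicates 1, 2 and 3, against 2817, 3399, 11079 and 9782 in control replicates 1 to 4. The low libraries were siRNLTR12-int replicate 1 and control replicates 1 and 2, and the groups overlapped. The highest library had 4.65 times the lowest, a spread on the log2 scale that exceeded that of 91.6% of the genes tested. Means were 9520.0 ± 5417 (SD, n = 3) after siRNLTR12-int and 6769 ± 4267 (SD, n = 4) in controls. The log2 difference was 0.51 with a 95% interval of -1.08 to 2.10 (limma adjusted p = 0.981), and the authors' deposited table gave 0.49 with a standard error of 0.63 (adjusted p = 0.9999). The interval thus covers both a lower level and a severalfold higher level after the siRNA.

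Within the astrocyte-poor libraries, Pcdh15 was higher in both siRNLTR12-int replicates than in both controls. A limma fit of those 4 libraries gave a log2 difference of 0.28 (95% interval 0.07 to 0.49, adjusted p = 0.114). In the astrocyte-rich set the lone siRNLTR12-int library lay between the 2 controls, at a log2 difference of 0.09. With the split as a block, the log2 difference over all 7 libraries was 0.20 (limma adjusted p = 0.413).

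Dscam (ENSRNOG00000027992) repeated the order of Pcdh15. It had 2024, 8536 and 8262 normalised counts in siRNLTR12-int replicates 1, 2 and 3, against 1770.2, 2904, 6703 and 5413 in control replicates 1 to 4. The same 3 libraries were low, and the highest had 4.82 times the lowest. Group means were 6274 ± 3683 (SD, n = 3) after siRNLTR12-int and 4197 ± 2259.6 (SD, n = 4) in controls, with a log2 difference of 0.50 (95% interval -1.01 to 2.01, limma adjusted p = 0.981). The authors' deposited table gave 0.58 with a standard error of 0.59 (adjusted p = 0.9999).

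Among the members, Dscam had the widest gap within the astrocyte-poor libraries. There its log2 difference was 0.48 (95% interval 0.22 to 0.74, limma adjusted p = 0.0513), just outside the threshold that 6.68% of all genes passed in the same fit. In the astrocyte-rich set it was -0.16, since control replicate 2 exceeded siRNLTR12-int replicate 1. The block fit gave 0.22 (limma adjusted p = 0.682).

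Rlbp1 (ENSRNOG00000016897) had 1890.2, 5204 and 4818 normalised counts in siRNLTR12-int replicates 1, 2 and 3, against 1772, 2221, 3897 and 3883 in control replicates 1 to 4. It shared the pattern of Pcdh15 and Dscam with a smaller span, the highest library having 2.94 times the lowest. Means were 3971 ± 1812 (SD, n = 3) after siRNLTR12-int and 2943 ± 1108 (SD, n = 4) in controls, and the log2 difference was 0.38 (95% interval -0.65 to 1.41, limma adjusted p = 0.977). The authors' deposited table gave 0.43 with a standard error of 0.44 (adjusted p = 0.9999).

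Rlbp1 was also the single member that passed in the astrocyte-poor libraries alone, at a log2 difference of 0.36 (95% interval 0.19 to 0.54, limma adjusted p = 0.0381). Higher calls made up 4.02% of the genes in that fit, which rests on 2 libraries per group. In the astrocyte-rich set the difference was -0.07, and the block fit gave 0.19 (limma adjusted p = 0.533), so the call did not hold over all 7 libraries.

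Pdgfra and Olig2 moved with these 3 genes, while astrocyte and microglia markers ran the other way. Sox10 departed from this order in control replicate 2, at 29794 normalised counts against 27505 and 28089 in siRNLTR12-int replicates 2 and 3. Pdgfra, the growth factor receptor that defines progenitor cells, had 16580.3, 53300.5 and 50749 normalised counts after siRNLTR12-int and 13936, 14569.6, 39041 and 38097 in controls, the same low and high libraries. Olig2, a lineage transcription factor, had 10733, 26395 and 24481 after siRNLTR12-int and 9854, 13716, 22134 and 22372 in controls. Gfap, the intermediate filament of astrocytes, ran the other way, with 306397, 19440.4 and 20478 after siRNLTR12-int and 262591, 224537, 27204 and 44392 in controls. The part of the cell mixture in the member values was not tested.

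Levels of the 3 genes were also set against the lineage, as log2(normalised count + 1) minus the mean of Sox10, Olig1, Olig2 and Nkx2-2 on the same scale. On this scale Dscam stood at -1.91, -1.10 and -1.19 in siRNLTR12-int replicates 1, 2 and 3, against -1.99, -2.07, -1.48 and -1.92 in control replicates 1 to 4. Values of siRNLTR12-int replicates 2 and 3 exceeded every control value, and that of replicate 1 lay inside the control range. Rlbp1 stood at -2.01, -1.82 and -1.97 after siRNLTR12-int and at -1.98, -2.46, -2.26 and -2.40 in controls. Pcdh15 stood at -1.21, -0.49 and -0.63 after siRNLTR12-int and at -1.32, -1.85, -0.75 and -1.06 in controls. Rescaled this way, limma gave log2 differences of 0.46 for Dscam, 0.34 for Rlbp1 and 0.47 for Pcdh15, each at an adjusted p of 0.99998.

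The promoters of the 3 genes are shown because their transcripts moved together across the libraries. The RefSeq table of build GRCr8 covered 5 of the 7 members and holds 300 bases per start, from 250 before to 50 after it, read 5′ to 3′ on the gene's strand. A gene can have further starts. Capitals mark matches to the E-box CANNTG, which binds basic helix-loop-helix proteins such as Olig2.
Pcdh15, chr20:14824749-14825048, minus strand: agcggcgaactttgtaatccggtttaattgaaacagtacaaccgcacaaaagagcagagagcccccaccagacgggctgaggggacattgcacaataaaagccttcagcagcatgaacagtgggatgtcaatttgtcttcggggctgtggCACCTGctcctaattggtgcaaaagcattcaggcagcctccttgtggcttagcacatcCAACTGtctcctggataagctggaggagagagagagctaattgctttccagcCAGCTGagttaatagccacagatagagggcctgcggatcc
Dscam, chr11:49976466-49976765, minus strand: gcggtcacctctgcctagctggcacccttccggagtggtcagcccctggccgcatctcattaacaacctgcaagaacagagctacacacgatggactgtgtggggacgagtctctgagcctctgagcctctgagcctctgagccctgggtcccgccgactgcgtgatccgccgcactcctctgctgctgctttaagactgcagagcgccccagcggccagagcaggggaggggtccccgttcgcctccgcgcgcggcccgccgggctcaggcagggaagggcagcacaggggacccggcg
Rlbp1, chr1:142731572-142731871, minus strand: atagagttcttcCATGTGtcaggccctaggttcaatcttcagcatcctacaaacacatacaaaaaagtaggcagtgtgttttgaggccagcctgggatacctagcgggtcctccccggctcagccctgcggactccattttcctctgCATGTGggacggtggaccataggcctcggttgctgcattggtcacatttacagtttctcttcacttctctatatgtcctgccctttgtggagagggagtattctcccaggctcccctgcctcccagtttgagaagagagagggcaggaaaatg
The window of Pcdh15 held 3 E-box matches, that of Rlbp1 held 2, and that of Dscam held 0, while 71.6% of 27457 promoters of 1 start per gene held at least 1. The Sox-type word ACAAAG, searched on both strands, was found in the windows of Pcdh15 and Rlbp1 and not in that of Dscam, and in 18.3% of all promoters. The word CCAAT occurred once each in Pcdh15 and Rlbp1 and in 37.7% of all promoters. None of the 3 windows held the second Sox-type word AACAAT, found in 11.6% of all promoters. None held the GC box GGGCGG, found in 34.9%, or the TATA box TATAAA, found in 14.3%. The Dscam window had 67.7% G and C and 22 CG dinucleotides, against 51.3% and 7 for Pcdh15, 52% and 5 for Rlbp1, and medians of 52.3% and 7 over all promoters. The E-box and CCAAT words did not overlap in these windows. The 3 windows thus shared none of the words searched.

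**Figure D2:**
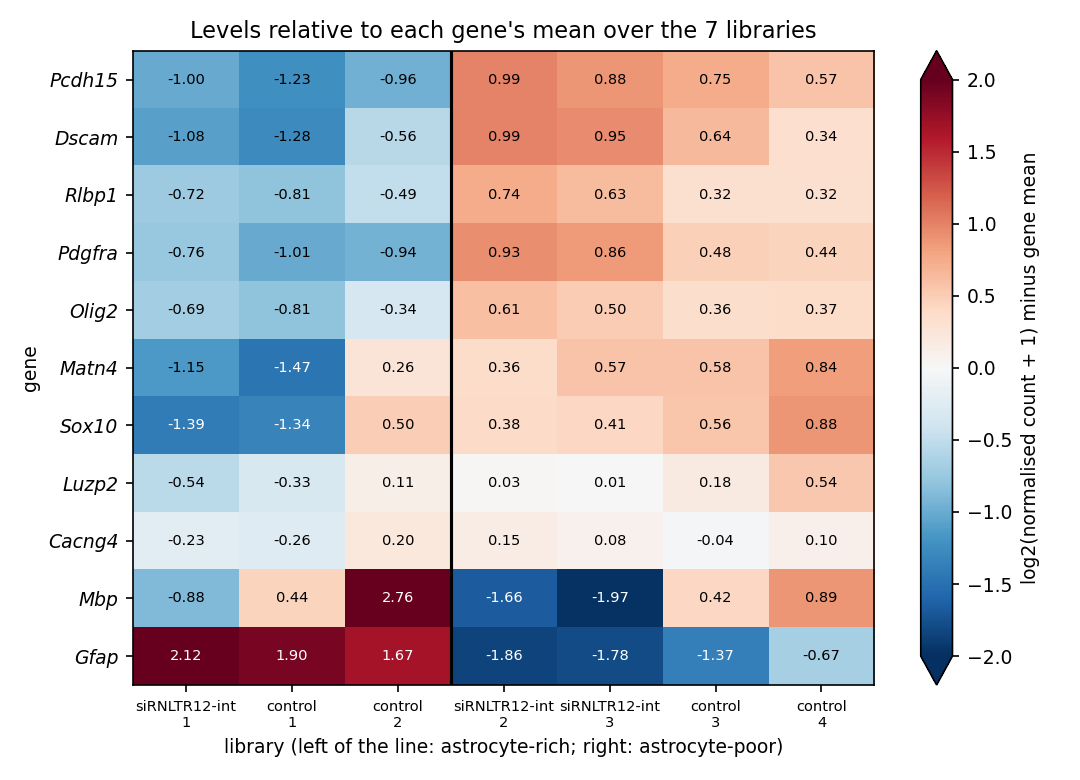
Log2(normalised count + 1) of the 6 measured members and of Pdgfra, Olig2, Sox10, Mbp and Gfap in each library, minus the gene's mean over the 7 libraries (colour scale limited to ±2, values printed in the cells). Columns left of the line are astrocyte-rich, with siRNLTR12-int before control in each set. Control replicate 2 is low for Pcdh15, Dscam and Rlbp1, and above the mean for Matn4, Sox10, Luzp2 and Cacng4.

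Matn4 (ENSRNOG00000014021), the least abundant member with reads, followed another order. It had 275, 782 and 905 normalised counts in siRNLTR12-int replicates 1, 2 and 3, against 220.1, 732, 909 and 1091 in control replicates 1 to 4. Only siRNLTR12-int replicate 1 and control replicate 1 were low, whereas control replicate 2 came close to the astrocyte-poor libraries, as it did for Sox10. Sox10 had 8037, 27505 and 28089 normalised counts after siRNLTR12-int and 8318, 29794, 31034 and 38713 in controls. The highest Matn4 library had 4.96 times the lowest, and the values rest on 230 to 1123 recovered reads per library.

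Means of Matn4 were 654 ± 334 (SD, n = 3) after siRNLTR12-int and 738 ± 375 (SD, n = 4) in controls, a log2 difference of -0.13 (95% interval -1.63 to 1.38, limma adjusted p = 0.996). The authors' deposited table gave -0.17 with a standard error of 0.58 (adjusted p = 0.9999). The sign depended on single libraries: the log2 difference was 0.41 without siRNLTR12-int replicate 1, 0.05 without control replicate 3 and 0.14 without control replicate 4. Within the astrocyte-poor libraries it was -0.24 (limma adjusted p = 0.298), and within the astrocyte-rich ones -0.54 with a single siRNLTR12-int library.

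Luzp2 (ENSRNOG00000021507) varied less. It had 1229, 1824 and 1804 normalised counts in siRNLTR12-int replicates 1, 2 and 3, against 1427, 1935, 2034 and 2601 in control replicates 1 to 4. All siRNLTR12-int values lay below control replicates 2, 3 and 4, and control replicate 1 fell inside their range. Means were 1619 ± 338 (SD, n = 3) after siRNLTR12-int and 1999 ± 481 (SD, n = 4) in controls, a log2 difference of -0.30 (95% interval -0.84 to 0.25, limma adjusted p = 0.935). In the authors' deposited table it was -0.30 with a standard error of 0.27 (adjusted p = 0.9999).

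Luzp2 was lower after siRNLTR12-int in both sets of libraries. In the astrocyte-poor set both siRNLTR12-int libraries lay below both controls, with a log2 difference of -0.34 (95% interval -0.63 to -0.05, limma adjusted p = 0.149). In the astrocyte-rich set siRNLTR12-int replicate 1 lay below both controls, at -0.44. With the split as a block the difference was -0.38 (95% interval -0.70 to -0.06, limma adjusted p = 0.291), which misses the threshold.

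Cacng4 (ENSRNOG00000003262) was the steadiest of the 6. It had 23717, 30766 and 29307 normalised counts in siRNLTR12-int replicates 1, 2 and 3, against 23195, 31968, 26945 and 29669 in control replicates 1 to 4. The highest library had 1.38 times the lowest, and the spread over the libraries exceeded that of 27% of the genes tested. Means were 27930.2 ± 3721 (SD, n = 3) after siRNLTR12-int and 27944 ± 3773 (SD, n = 4) in controls. The log2 difference was 0.00 with a 95% interval of -0.36 to 0.36 (limma adjusted p = 0.9995), and the authors' deposited table gave -0.0007 with a standard error of 0.18 (adjusted p = 0.9999). That interval covers differences of up to 0.36 in either direction, and it is not a limit of detection for the adjusted test.

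The remaining members were also set against the lineage genes. Cacng4 stood 1.64, 0.74 and 0.63 above the lineage level on the log2 scale in siRNLTR12-int replicates 1, 2 and 3, and 1.73, 1.39, 0.53 and 0.54 above it in control replicates 1 to 4. Its ratio to the lineage was thus highest in the 3 astrocyte-rich libraries, where Pdgfra and Olig2 were lowest. Cacng4 itself varied little and Olig2 is part of the lineage level, so this ratio largely mirrors that level. Luzp2 stood at -2.63, -3.33 and -3.39 after siRNLTR12-int and at -2.30, -2.66, -3.20 and -2.98 in controls, also highest in the astrocyte-rich set. Matn4 stood at -4.79, -4.55 and -4.38 after siRNLTR12-int and at -4.99, -4.06, -4.36 and -4.23 in controls.

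Neu4 (ENSRNOG00000051904) was listed at 0 in all 7 libraries, and the authors' deposited table held no fold change for it. In mouse, Neu4 transcripts are known from progenitors and newly formed oligodendrocytes. Among 294480778 recovered reads in all, a count of 0 allows up to 3 reads in each library, which is 2.18 to 5.32 normalised counts and covers counting error only. Among all genes listed, 4812 (14.6%) were at 0 in every library. Of 20 genes that every cell uses, 0 were at 0 in any library, with a lowest value of 3.45 normalised counts for the ribosomal protein gene Rpl13a. That value is about as low as the limits given for Neu4, so a gene that every cell uses can be listed near 0 here. A listed 0 thus does not by itself show that Neu4 transcripts were absent. The sialidases Neu1 and Neu3, of lysosome and plasma membrane, were both detected. Neu1 had 766 to 1014 normalised counts after siRNLTR12-int and 714 to 998 in controls, and Neu3 had 625 to 692 after siRNLTR12-int and 598 to 736 in controls. Whether the annotation that was used could count Neu4 transcripts was not tested.

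**Figure D3:**
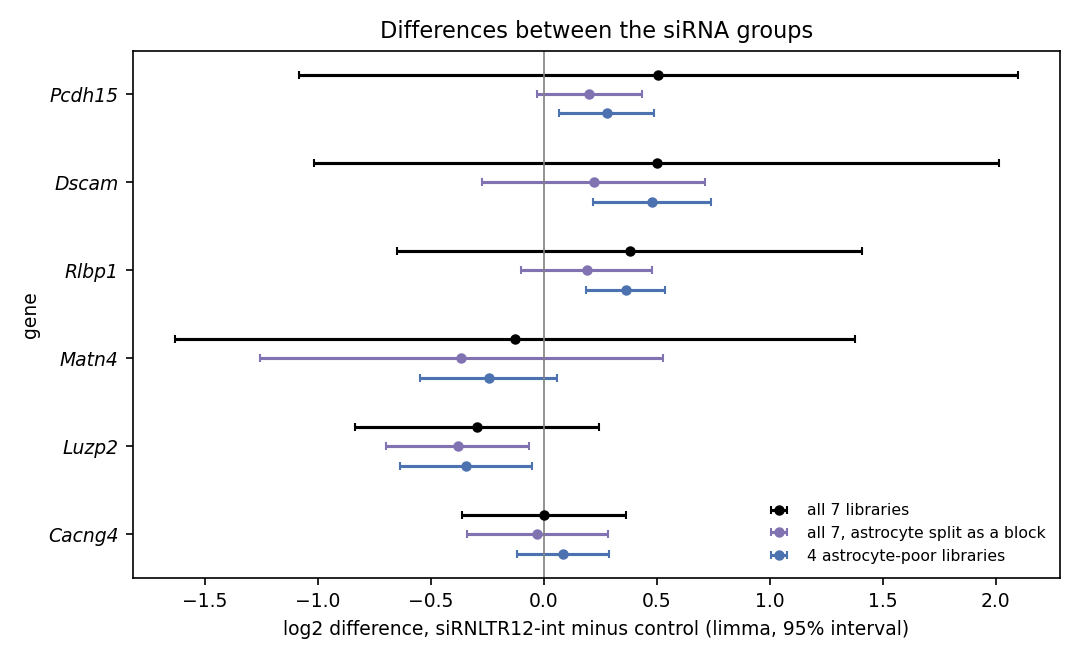
Log2 difference, siRNLTR12-int minus control (horizontal axis), of the 6 measured members in 3 limma fits, with 95% intervals as bars. Black is the fit of all 7 libraries, purple the same with the astrocyte split as a block, and blue the 4 astrocyte-poor libraries. All black intervals cover 0, and in the blue fit those of Pcdh15, Dscam and Rlbp1 lie above 0 and that of Luzp2 below it, before adjustment over all genes.

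The members fell into sets by their course over the libraries. In 4 of the 6 (Pcdh15, Dscam, Rlbp1 and Matn4) the lowest astrocyte-poor library exceeded the highest astrocyte-rich one, as it did in 17.1% of the genes tested. Likeness was measured as the root mean square difference between genes of log2(normalised count + 1), each gene centred on its own mean over the 7 libraries, which share their depth and cell mixture. Pcdh15 and Dscam were the closest pair of members at 0.18, followed by Luzp2 and Cacng4 at 0.23, Dscam and Rlbp1 at 0.30, and Pcdh15 and Rlbp1 at 0.35. A small value also arises where both genes vary little, and Luzp2 and Cacng4 had the smallest spreads of the 6. Matn4 was closest to Dscam, at 0.47. The farthest pair was Pcdh15 and Cacng4 at 0.85.

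Within the astrocyte-poor libraries the siRNA groups separated in 5 of the 6, with Pcdh15, Dscam and Rlbp1 higher and Luzp2 and Matn4 lower after siRNLTR12-int. With 2 libraries per group, 56.4% of all genes tested separated in this way, 31.2% of them upward and 25.3% downward as shares of all genes. The member count is therefore read with that background in view.

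Among 12362 other genes with a mean of at least 100 and a settled symbol, those closest in course were named by the same measure. For Pcdh15 they were B3galt5, a galactosyltransferase (0.0498), and Neto1, an auxiliary protein of glutamate receptors (0.0964). For Dscam they were the synaptic adhesion gene Slitrk3 (0.0846) and Gria4, an AMPA receptor subunit (0.0902). The genes next to Rlbp1 were Clstn3, a calsyntenin (0.0541), and the ion channel gene Asic2 (0.0579). Matn4 had as neighbours Ina, a neurofilament-type protein (0.097), and the proteoglycan Vcan (0.104). Luzp2 had Rbbp5, of histone methyltransferase complexes (0.0375), and Zfp605 (0.0634). Cacng4, whose course was nearly flat, had Egln1, an oxygen-sensing hydroxylase (0.0281), and Ppp2r1a, a phosphatase scaffold (0.0293).

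Other progenitor genes, 26 listed and 25 measured, had 15 positive and 10 negative log2 differences with a median of 0.23. None passed limma over all genes and all 7 libraries or had an adjusted p under 0.05 in the authors' deposited table, and 3 had an unadjusted limma p under 0.05, all 3 higher and 0 lower. These were Cspg5, a chondroitin sulfate proteoglycan (log2 0.65, limma adjusted p = 0.661), the membrane protein gene Tmem100 (0.69, limma adjusted p = 0.661) and Megf11, an EGF repeat receptor (0.61, limma adjusted p = 0.716). In the astrocyte-poor libraries alone, where 4.02% of all genes were called higher and 2.67% lower, limma called 9 of the 25 higher and 1 lower. Cspg5, Tmem100 and Megf11 rose there by 0.90, 0.56 and 0.56 on the log2 scale (limma adjusted p = 0.0136, 0.0139 and 0.0315). Tnr was the gene called lower, at -0.49 (limma adjusted p = 0.0403). Without regard to calls, the siRNA groups separated there upward in 14 of the 25 and downward in 9. Over all genes tested these shares were 31.2% and 25.3%. The other 7 lists of related genes were smaller, with 7 to 17 measured genes each. They had 0 to 2 higher and 0 to 2 lower calls each in that fit of 2 libraries per group. The non-clustered protocadherins had 2 higher and 2 lower calls among 10 genes. Cspg5 and Tmem100 did not share the astrocyte split with Pcdh15: Tmem100 had 4244, 4083 and 3897 normalised counts after siRNLTR12-int and 3106, 1768, 2763 and 2650.4 in controls.

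**Figure D4:**
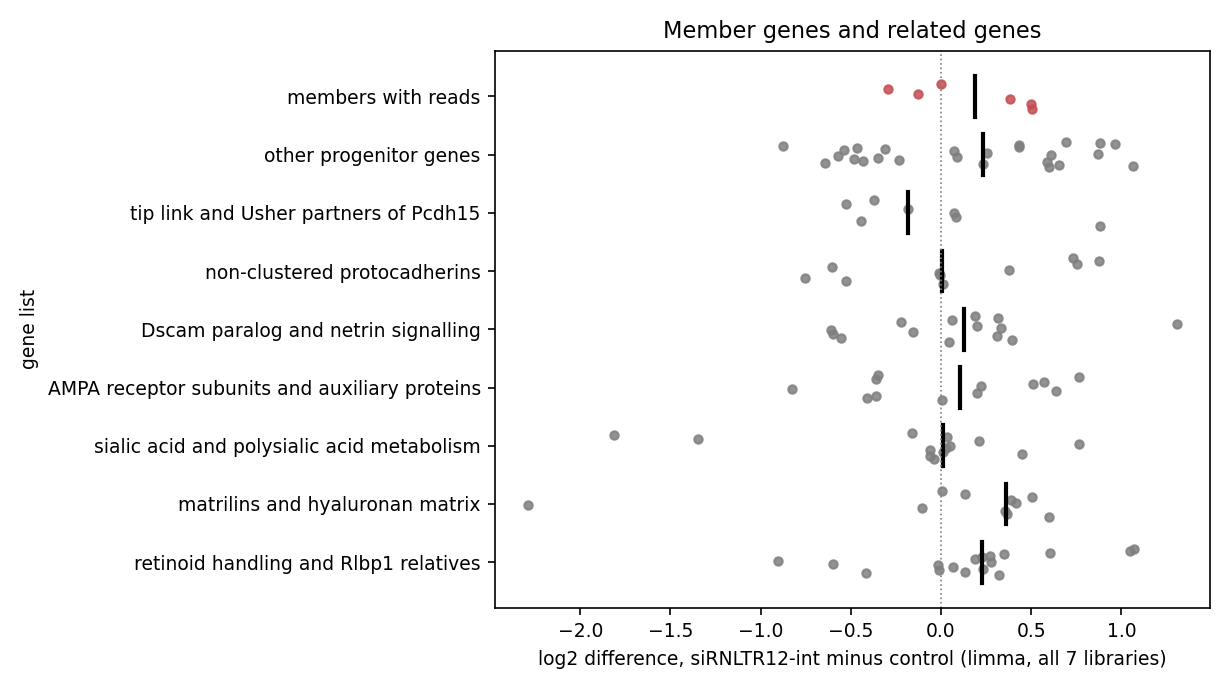
Log2 difference, siRNLTR12-int minus control (limma, all 7 libraries), of each measured member (red) and of each measured gene of the 8 lists of related genes (grey), with list medians as black bars. The members lie between -0.30 and 0.51, and all lists reach both sides of 0.

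Partners of Pcdh15 were examined next. In this list and in those below, 3 genes per list were named for the smallest limma p. That choice favours groups that do not overlap, which were seen in 7.68% of all genes tested. Of 13 genes of the tip link and the Usher proteins, 7 were measured, with 3 positive, 4 negative, a median of -0.18 and 0 past limma. Cdh23, the cadherin that pairs with Pcdh15 in hair cells, had 445, 537 and 452 normalised counts after siRNLTR12-int and 339, 157, 343 and 241 in controls, groups that did not overlap (log2 0.88, limma adjusted p = 0.701). The receptor gene Adgrv1 had a log2 difference of -0.53 and the scaffold gene Whrn one of -0.18 (limma adjusted p = 0.98 and 0.935). The value of Adgrv1 ranged from -1.24 without siRNLTR12-int replicate 1 to -0.17 without siRNLTR12-int replicate 2, and was -0.23 with the astrocyte split as a block. Unlike Pcdh15, Adgrv1 was higher in the astrocyte-rich libraries, at 3297 to 3733 against 851 to 1206 normalised counts in the others.

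Among 10 measured non-clustered protocadherins, relatives of Pcdh15, 5 were positive and 5 negative, with a median of 0.00. Pcdh19, an adhesion protein of neural cells, had 1351, 1189 and 1262 normalised counts after siRNLTR12-int and 632, 570.4, 912 and 681 in controls, and all 3 siRNLTR12-int libraries exceeded all controls. In the authors' deposited table its log2 fold change was 0.86 (adjusted p = 0.0112), and that table marks it as not differentially expressed. It did not pass limma either (log2 0.88, adjusted p = 0.647). Pcdh18 and Pcdh7 had log2 differences of 0.76 and -0.53 (limma adjusted p = 0.796 and 0.895).

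The Dscam relative Dscaml1 and 13 genes of netrin signalling, all measured, had 9 positive and 5 negative differences with a median of 0.13 and 0 past limma. Dscaml1 had 1959, 5571 and 5935 normalised counts after siRNLTR12-int and 1720.4, 3674, 5706 and 6342 in controls, overlapping groups. Ntn4, a netrin, had 1622, 2538 and 2374 after siRNLTR12-int and 1252, 336, 1461 and 896 in controls (log2 1.31, limma adjusted p = 0.733). The netrin receptor gene Neo1 was at -0.55 and the adaptor gene Nck1 at 0.31 (limma adjusted p = 0.766 and 0.701).

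Cacng4 belongs with the AMPA receptor and its auxiliary proteins, of which 12 of 14 other genes were measured. Their median log2 difference was 0.10, with 7 positive, 5 negative and 0 past limma. Cacng8, a close relative, had 169.9, 244 and 193 normalised counts after siRNLTR12-int and 128, 107, 168 and 117 in controls, groups that did not overlap (log2 0.64, limma adjusted p = 0.712). The auxiliary genes Cnih3 and Cnih2 were at 0.77 and -0.36 (limma adjusted p = 0.85 and 0.895). Gria4, the subunit gene whose course was among the closest to that of Dscam, had 1198, 5015 and 4703 after siRNLTR12-int and 950.2, 1456, 3854 and 3317 in controls.

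For Neu4, 13 of 15 genes of sialic acid and polysialic acid metabolism were measured, 7 positive and 6 negative, with a median of 0.01 and 0 past limma. The sialyltransferase genes St8sia3 and St8sia5 were at -1.35 and -1.81 (limma adjusted p = 0.782 and 0.808), and control replicate 2 was the highest library in both, at 972 and 899 normalised counts against 202 to 239 and 67.0 to 261 in the other controls. Without control replicate 2, the log2 differences were -0.81 and -1.15. Gne, the first enzyme of sialic acid synthesis, was at 0.45 (limma adjusted p = 0.796).

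Beside Matn4, 10 of 11 genes of the matrilins and the hyaluronan matrix were measured, 8 positive and 2 negative, with a median of 0.36 and 0 past limma. Matn2, another matrilin, had 228, 248 and 253 normalised counts after siRNLTR12-int and 188, 129.9, 174 and 154 in controls, groups that did not overlap (log2 0.60, limma adjusted p = 0.662). The link protein gene Hapln2, a gene of mature oligodendrocytes, had 29.2, 7.60 and 15.3 after siRNLTR12-int and 58.4, 169, 66.4 and 56.8 in controls. It fell by 2.33 in the authors' deposited table (adjusted p = 0.0235) and was at -2.29 in limma (adjusted p = 0.647). Without control replicate 2 its limma difference was -1.92. Has1, a hyaluronan synthase, was at 0.50 (limma adjusted p = 0.84).

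For Rlbp1, 17 of 19 genes of retinoid handling and of its protein family were measured, 12 positive and 5 negative, with a median of 0.23 and 0 past limma. Cyp26b1, which breaks down retinoic acid, had 225, 323 and 339 normalised counts after siRNLTR12-int and 152, 182, 130.1 and 101 in controls, groups that did not overlap. It rose by 1.05 in the authors' deposited table (adjusted p = 0.0267) and was at 1.07 in limma (adjusted p = 0.647). The retinoid isomerase gene Rpe65 was at -0.90 and the retinaldehyde dehydrogenase gene Aldh1a3 at 1.05 (limma adjusted p = 0.867 and 0.875). Rlbp1 itself, at 0.38, lay above the median of this list. These 3 genes were named for the smallest limma p, so their larger differences do not set Rlbp1 apart. Its groups overlapped, as did those of Rpe65 and Aldh1a3.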

How the data were processed

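Directional paired-end libraries were built after ribosomal RNA had been removed, per the labels' protocols. Salmon, DESeq2 and build Rnor_6.0 stand in the submitters' processing notes. The authors deposited normalised counts per gene (a signal: counts over 1 size factor per library) and a comparison table with the mean signal, log2 fold change, its standard error, a test score and p-values, per the file headers. Divided by the smallest step of its library, 100% of the values above 0 came out whole to within 0.01, and these whole numbers are used as recovered reads; rounded estimated counts would look alike.

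Limma 3.58.1 (R 4.3.3, mean-variance trend, two-sided, no covariate) was fitted to log2(normalised count + 1) over 18225 genes with a mean of at least 10. Such fold changes understate low genes. EdgeR 4.0.16 (quasi-likelihood) and DESeq2 1.42.0 were run on the recovered reads as alternatives, beside other pseudocounts, filters, scalings, blocks, weights and left-out libraries. The limma fit was tested on simulated data. Members and lists were chosen with earlier results of these data known. Named were the members, Sox10, Olig2, Mbp, Gfap and Pdgfra, the 3 related genes per list with the smallest limma p, and the 2 genes closest in course to each measured member. Other genes were chosen after their values were seen. Libraries were split at the largest gap in astrocyte marker level.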

Additional observations from a re-analysis of the deposited data

Results flagged for a closer look

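Of 47 named genes whose 4 control libraries were compared with each other, 3 had 1 control far from the other 3 by Dixon's test, which chance alone flags in about 1 of 20 groups. None was a member, and all 3 involved control replicate 2. For Mbp this library held 401821 normalised counts and the other 3 held 78977 to 109426. For St8sia3 it held 972 and the others 202 to 239. For Hapln2, listed beside Matn4 among the matrix genes, it held 169 and the others 56.8 to 66.4.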

How the results depend on the processing

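No member passed limma, edgeR or DESeq2 over all 7 libraries under any alternative run. Among the members, Pcdh15, Dscam, Rlbp1 and Luzp2 kept their direction in the alternative fits. In the 3 astrocyte-rich libraries, described without a fit, Dscam (-0.16) and Rlbp1 (-0.07) had the opposite sign. Without 1 library, the log2 differences of Pcdh15, Dscam, Rlbp1 and Luzp2 ranged from 0.16 to 1.15, 0.15 to 1.18, 0.12 to 0.85 and -0.45 to -0.11. Rlbp1 passed in the 4 astrocyte-poor libraries alone (0.36). Matn4 ranged from -0.63 to 0.41 without 1 library, and Cacng4 from -0.086 to 0.11. Cacng4 was at -0.040 with lineage rescaling, -0.028 with the astrocyte split as a block and -0.0007 in DESeq2. The genes called over the whole table, 0 in limma, numbered 1218 in the astrocyte-poor libraries, 839 with array weights, 141 in DESeq2 and 0 to 2 without 1 library. Causes were not tested.

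Counted as pairs of gene and setting, other named genes changed sign in 15 pairs. Without 1 library, Sox10 ranged from -0.84 to 0.25, Ina from -0.71 to 0.26 and Vcan from -0.72 to 0.32. Slitrk3 ranged from -0.018 to 1.05, Egln1 from -0.050 to 0.15 and Ppp2r1a from -0.059 to 0.11 in the same way. Egln1 was at -0.012 with lineage rescaling and -0.0037 with the split as a block, and Ppp2r1a at -0.014 with lineage rescaling. In 31 pairs of gene and setting, another named gene passed the test where the main fit had no call. Sox10, Ina, Vcan, Slitrk3, Egln1 and Ppp2r1a were not among these.

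Deviations of same-numbered libraries from the group means had correlations of 0.75, -0.19 and 0.63 for numbers 1, 2 and 3. Numbers 1 and 3 of the siRNLTR12-int group were closest to control numbers 1 and 3, and number 2 to control number 3. Whether same-numbered libraries shared a preparation was not tested, and the labels do not say so. With the replicate block, limma called 0 genes and gave Pcdh15 0.77, Dscam 0.68, Rlbp1 0.54, Luzp2 -0.16, Matn4 0.14, Cacng4 0.03 and Vcan 0.043. Control replicate 4 has no siRNLTR12-int library of its number, so this fit draws its log2 differences from numbers 1 to 3. Their median over all genes, 0.0014, was that found without control replicate 4. The block also sets siRNLTR12-int replicate 2, an astrocyte-poor library, against control replicate 2, an astrocyte-rich one. The spread between libraries, rather than depth, sets the intervals of the 6 measured members, whose counts were 230 reads or more.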
